A study of Hordeum vulgare with 6 samples.

Results

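The 4 genes described here encode enzymes of the phenylpropanoid pathway in barley (Hordeum vulgare): chalcone synthase 2 (HORVU1Hr1G089540), a caffeic acid O-methyltransferase (HORVU4Hr1G001250) and a pair of laccases (HORVU1Hr1G019750 and HORVU3Hr1G097860). They were chosen by the function that the study gives them, from the genes it had selected for a difference between its groups, so that each had to be detected to be listed. All 4 were present in the deposited table, which lists 39841 genes. The study compared shoots of barley line Rolap under 2 phosphate (Pi) regimes, with 3 libraries each, and all plants grew in the same soil with 8 mg P/kg. Low-Pi plants received no further phosphorus, whereas 60 mg P/kg was added as KH2PO4 for the control. Shoots were harvested at day 23 after growth at 22 °C with 16 h of light, and 1 replicate pooled the 3 seedlings of a pot. Whole shoots were sampled, so the number of cells of a type and the RNA per cell cannot be told apart in any level.

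Plants build phenylpropanoids from phenylalanine by way of p-coumaroyl-CoA, at which the routes to flavonoids and to lignin part. Chalcone synthase condenses p-coumaroyl-CoA with malonyl-CoA to naringenin chalcone and is the entry enzyme of flavonoid synthesis. Caffeic acid O-methyltransferase adds a methyl group to a ring hydroxyl of lignin precursors and is needed for syringyl lignin. Laccases are copper enzymes of the cell wall that oxidise monolignols, which then couple to the lignin polymer. The name of the methyltransferase is less settled than the others: the study also lists HORVU4Hr1G001250 as an enzyme that methylates tricetin, a flavone, and so places it on the flavonoid side.

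Upstream sequence of the 4 genes is shown first because it is where the flavonoid and methyltransferase genes differed in content from the laccase genes. The sequences come from the study's own supplementary sheet, in the copy used here, which gives 399 bases of each 2 kb upstream region. The sheet states neither the coordinates nor the strand, nor which end lies nearer the start site. Stretches of 180 or 200 bases are printed as the sheet gives them, and capitals mark matches to one of 4 motifs, namely P1BS (GNATATNC, bound by PHR factors in Arabidopsis), the PHO element (ATGCCAT), the AC element (ACCNACC, bound by MYB factors of lignin genes in other plants) and the G-box (CACGTG). Both strands were searched, and P1BS and the G-box read the same on either strand.
HORVU1Hr1G089540, chalcone synthase 2, bases 1 to 180: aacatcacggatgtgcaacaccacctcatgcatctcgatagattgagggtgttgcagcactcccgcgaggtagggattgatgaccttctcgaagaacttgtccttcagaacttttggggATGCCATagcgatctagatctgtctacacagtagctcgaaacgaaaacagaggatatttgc
HORVU4Hr1G001250, caffeic acid O-methyltransferase, bases 1 to 180: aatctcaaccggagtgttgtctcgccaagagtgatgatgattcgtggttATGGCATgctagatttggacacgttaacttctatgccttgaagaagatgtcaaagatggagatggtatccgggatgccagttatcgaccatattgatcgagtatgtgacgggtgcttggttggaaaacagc
HORVU1Hr1G019750, laccase on 1H, bases 61 to 260: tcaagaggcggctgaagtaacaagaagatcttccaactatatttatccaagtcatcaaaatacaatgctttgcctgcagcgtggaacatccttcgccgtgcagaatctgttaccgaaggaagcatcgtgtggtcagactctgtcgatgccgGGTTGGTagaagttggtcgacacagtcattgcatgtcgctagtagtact
HORVU3Hr1G097860, laccase on 3H, bases 61 to 260: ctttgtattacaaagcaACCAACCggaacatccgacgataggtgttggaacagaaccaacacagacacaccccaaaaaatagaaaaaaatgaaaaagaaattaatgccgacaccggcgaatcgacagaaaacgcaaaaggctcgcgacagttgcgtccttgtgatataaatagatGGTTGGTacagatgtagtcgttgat

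The PHO element occurred once upstream of chalcone synthase 2, at bases 120 to 126 as printed, and once upstream of the methyltransferase, at bases 50 to 56 on the other strand. Neither laccase window held it. The AC element showed the opposite distribution. The laccase on 1H held 1 match, at bases 212 to 218 on the other strand. The laccase on 3H held 2 matches, at bases 78 to 84 as printed and at bases 236 to 242 on the other strand. The windows of chalcone synthase 2 and the methyltransferase held none. All 96 windows of the sheet belong to genes that the study had selected for a difference between its groups. They are therefore not a background of all genes. Among them, 9.38% held the PHO element and 21.9% the AC element, so that 4 windows allow only a description of the difference between the 2 pairs of genes. P1BS was in 9.38% of the windows and the G-box in 5.21%, and none of the 4 genes carried either in the bases supplied. A match is a run of letters and not a shown binding site, and the bases of each region outside the window were not searched.

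**Figure D1:**
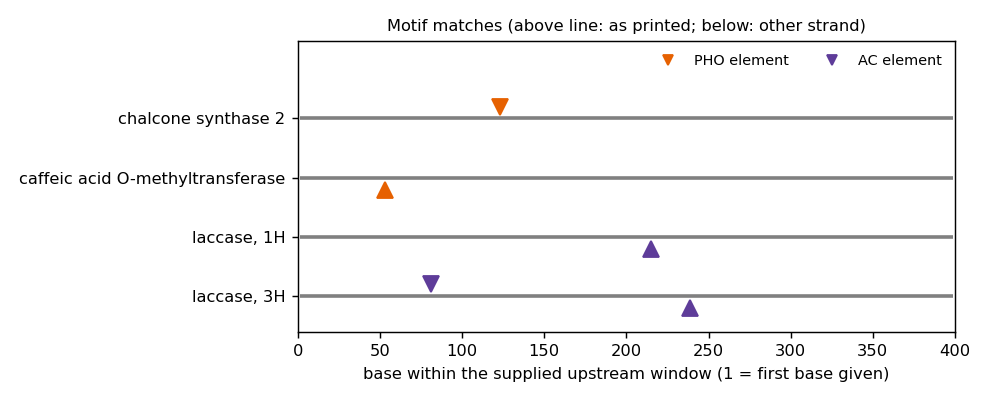
Positions of motif matches in the 399 supplied upstream bases of each gene (horizontal axis, base number within the window), with matches on the strand as printed above the line and matches on the other strand below it. The PHO element lies in the windows of chalcone synthase 2 and the methyltransferase, and the AC element in those of both laccases.

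The windows also differed in base composition. The GC content was 49.6% upstream of chalcone synthase 2 and 48.4% upstream of the methyltransferase. It was 43.1% upstream of the laccase on 1H and 38.6% upstream of the laccase on 3H. The median over the 85 windows without undetermined bases, also of selected genes, was 43.9%, with quartiles of 39.3% and 50.6%. The laccase on 3H thus lay just under the lower quartile, and the other 3 genes lay between the quartiles.

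Expression is given by a single value per gene, the higher of the authors' 2 group means. It is called the level here, because the table does not name its unit or say which group it belongs to. The level of chalcone synthase 2 was 18.0. The level of the methyltransferase was 13.9. The laccases were lower, with a level of 9.13 for the gene on 3H and of 5.69 for the gene on 1H. The order was therefore flavonoid entry enzyme, methyltransferase, laccase on 3H and laccase on 1H, and the highest level was 3.16 times the lowest. Neighbours in this order stood 1.29, 1.52 and 1.61 times apart. The table gives no value per library, so whether these steps exceed the spread between replicates could not be assessed, and the levels of 2 genes may come from different groups. The columns of the authors' own comparison were not used, and no difference between low-Pi and control is given for any gene.

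Levels were next set against all genes with a level above 0. Of the 39841 listed genes, 27022 had a level above 0, with a median of 1.22 and quartiles of 0.165 and 5.39. Chalcone synthase 2 exceeded 89.8% of these genes and was 14.7 times the median. The methyltransferase exceeded 87.4% of them and was 11.4 times the median. The laccase on 3H exceeded 82.5% and the laccase on 1H exceeded 75.8%, at 7.48 and 4.66 times the median. The laccase on 1H was thus only slightly above the upper quartile, and it exceeded 54.4% of the 14357 genes whose level was 1 or more. No gene reached the 90th percentile, a level of 18.4, although chalcone synthase 2 came close to it. Together the 4 genes made up 0.00792% of the summed level. That sum adds the higher group mean of each gene, so it is not the total of either group.

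**Figure D2:**
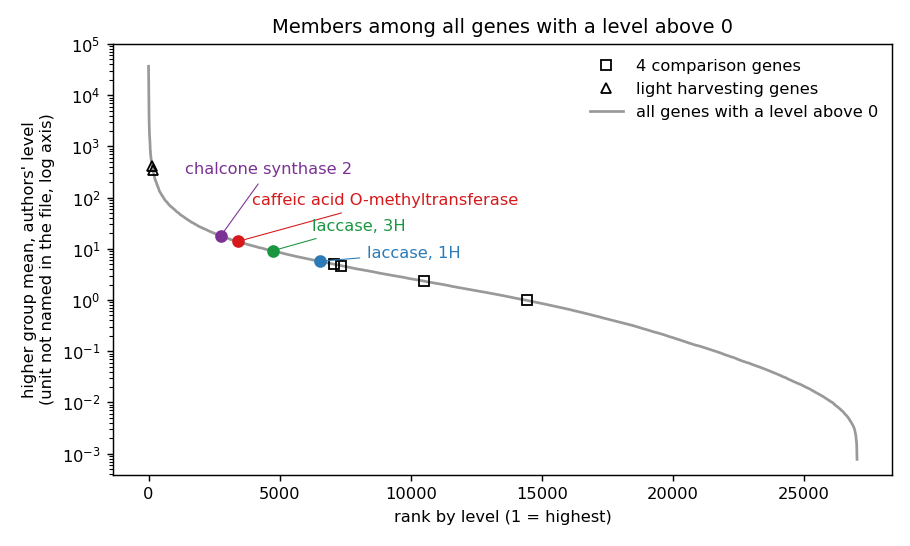
Level (vertical log axis, the higher group mean, unit not named in the table) against rank for the 27022 genes with a level above 0. The 4 named genes (filled circles) lie between levels of 5.69 and 18.0, above the 4 listed comparison genes (squares, 0.978 to 4.998) and below the light harvesting genes shown (triangles, 350 and 411). The levels of different genes may be means of different groups.

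The tissue label was checked against a pair of genes for chlorophyll a-b binding proteins, which hold light harvesting pigments in green tissue. Their levels were 411 (HORVU1Hr1G088920) and 350 (HORVU6Hr1G016890), with only 137 and 163 genes higher. The first was 22.8 times the level of chalcone synthase 2 and 72.2 times that of the laccase on 1H. These ratios may set means of different groups against each other. The pair does not hold every such gene: HORVU1Hr1G089620, which the study also names a chlorophyll a-b binding protein, had a level of 33.2.

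A list of 4 other genes of phenylpropanoid and cell wall chemistry was used for comparison, and each had a lower level than any of the 4 enzymes. The list does not hold every such gene of the study: HORVU1Hr1G089520, described with the neighbours of chalcone synthase 2, had a higher level than all of them. A level can be the mean of either group, so these orders need not hold within low-Pi or within control. The isoflavone reductase-like gene HORVU6Hr1G068850, from a family of reductases that act on phenylpropanoid compounds, had a level of 4.998. The peroxidase gene HORVU5Hr1G097130 had a level of 4.66, and class III peroxidases, like laccases, can oxidise monolignols in the wall. The laccase on 1H was 1.14 times the first and 1.22 times the second. These 3 levels were close together, but they may be means of different groups, so closeness within either group was not shown. Oxalate oxidases release hydrogen peroxide, which peroxidases use, and their levels were 2.34 (HORVU4Hr1G005440) and 0.978 (HORVU4Hr1G005380). Chalcone synthase 2 was 7.69 and 18.4 times these values. The 92 other genes for which the sheet gives an upstream window were likewise selected by the study for a difference between its groups. Their median level was 6.71, with quartiles of 2.68 and 17.4, against a median of 1.22 for all genes above 0. How far the selection favours high levels was not tested. Chalcone synthase 2 lay above the upper quartile of the 92 genes, with 23 of them higher. The methyltransferase had 28 of the 92 genes above it, the laccase on 3H had 36 and the laccase on 1H had 53, so that only the last lay below their median.

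The genes were spread over 3 chromosomes of the IBSC_v2 assembly, and no member overlapped another listed gene. Chalcone synthase 2 lies at chr1H:544054273-544055759 on the minus strand, 14.4 Mb from the end of the last listed gene of 1H. The laccase on the same chromosome lies at chr1H:74584459-74586782, also on the minus strand, and 469 Mb away. The methyltransferase lies at chr4H:1927451-1928793 on the minus strand, only 1.93 Mb from the start of 4H. The second laccase lies at chr3H:657163875-657166332 on the plus strand, 42.5 Mb from the end of the last listed gene of 3H. The laccase genes, which span 2324 and 2458 bp, are longer than chalcone synthase 2 with 1487 bp and the methyltransferase with 1343 bp, and the median span of all listed genes was 2252 bp. All 4 belong to multigene families, and how reads shared by near-identical copies were counted is not given in the sources used here, so their levels are uncertain to that extent.

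The listed genes around each enzyme were compared next. Chalcone synthase 2 had 7 listed genes within 100 kb, against a median of 3 over the 37577 genes on 1H to 7H, and 90.3% of those genes had no more than 7. The gene on its left, HORVU1Hr1G089530, had a level of 0.201 at a distance of 10.8 kb. The gene on its right, HORVU1Hr1G089550, had a level of 0.412 at 22.9 kb. A single gene within 100 kb was higher, HORVU1Hr1G089520 with a level of 42.2 at 30.4 kb, which the study lists as a flavonoid 7-O-methyltransferase. Such enzymes methylate the products of the route that chalcone synthase opens. The median level of the 7 genes was 0.412, and that of chalcone synthase 2 was 43.6 times as high. The ratio was 29.3 over the 22 genes within 500 kb. Among genes of a level of at least 1 within 100 kb, HORVU1Hr1G089520 alone remained, and chalcone synthase 2 was 0.425 times as high.

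The laccase on 3H had 5 genes within 100 kb, of which 3 had a level above 0, and it was the highest of them. Its neighbour HORVU3Hr1G097870 had a level of 0.679 at 7.41 kb, and HORVU3Hr1G097900 had 2.87. On the other side the nearest listed gene, HORVU3Hr1G097830, was 208 kb away with a level of 0. The laccase on 1H was more isolated, with 1 gene within 100 kb, HORVU1Hr1G019740 at 38.9 kb with a level of 0.426, 13.3 times lower. On the other side HORVU1Hr1G019770 lay 122 kb away with a level of 0.371. Neither laccase had a gene of higher level within 100 kb.

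The methyltransferase had 2 genes within 100 kb, HORVU4Hr1G001340 at 24.0 kb with a level of 0 and HORVU4Hr1G001350 at 93.9 kb with a level of 28.2, so that its level was 0.986 times the median of the pair. That value rests on these 2 genes: within 500 kb it had 23 listed genes with a median of 0.0368, and its level was 377 times that median. Just outside 100 kb, at 113 kb on the other side, HORVU4Hr1G001220 had a level of 199. Of the 23 genes within 500 kb, only 3 had a higher level than the methyltransferase.

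**Figure D3:**
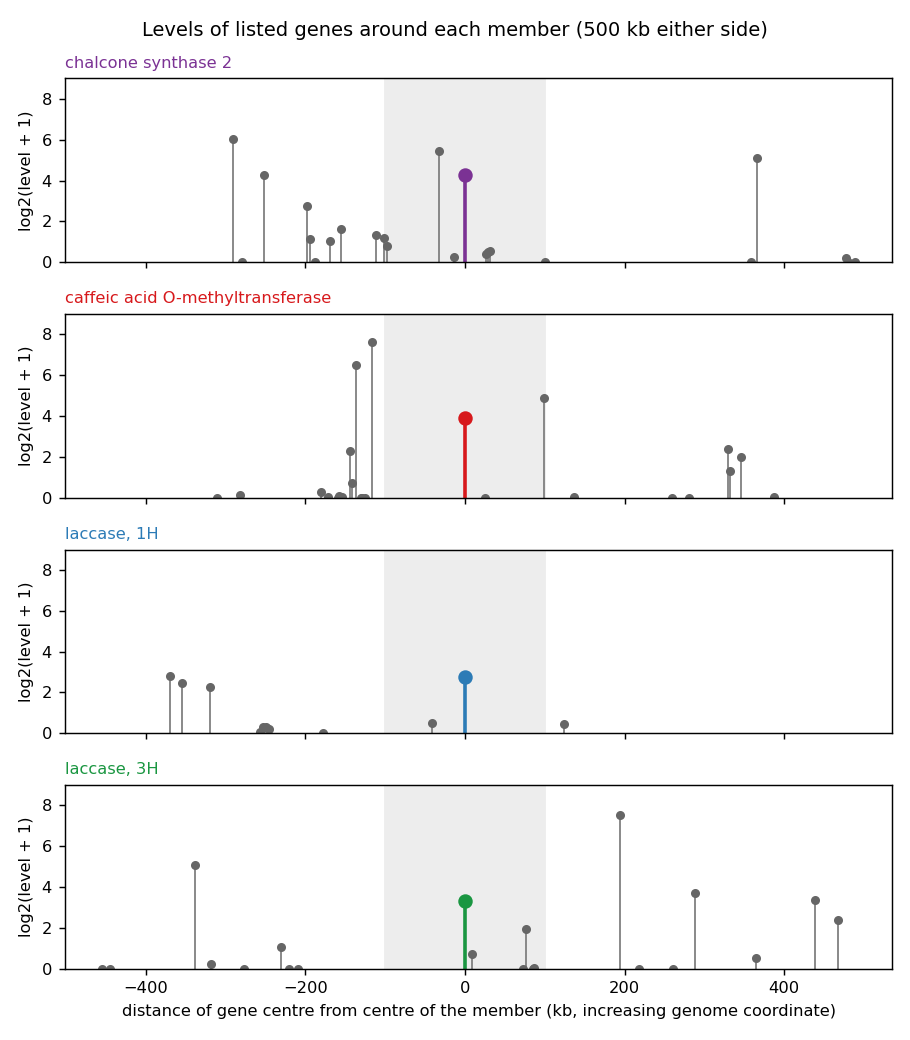
Levels of the listed genes up to 500 kb on either side of each gene (vertical axis, log2 of the level plus 1, horizontal axis, distance between gene centres in kb, shading marks 100 kb). Within the shading, chalcone synthase 2 (18.0) and the methyltransferase (13.9) each have 1 gene above them, and the laccases (9.13 and 5.69) have none.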

How the data were processed

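mRNA libraries from 3 low-Pi and 3 control shoot samples were mapped by the authors in CLC Genomics Workbench to barley IBSC_v2 with the Ensembl Plants annotation. Not given in the sources used here were its version, strand setting and handling of multiply mapped reads. The deposited signal is the higher of the authors' 2 group means of a normalised expression value, with no SD, for 39841 genes. With 0 columns of values for single libraries, the sequencing depth is unknown, and no test could be run. Its 5 other columns hold the authors' own comparison (fold changes and p-values) and were not used. From the signal, ranks and ratios were computed, and listed genes within 100 kb were counted between gene edges. Named genes were the 4 members, the nearest listed gene on either side, up to 3 genes of higher level within 100 kb, 4 pathway genes and 2 shoot markers. HORVU3Hr1G097900, outside this rule, was chosen after its value was seen. Members and lists were chosen with earlier results of these data known. Of 39733 HORVU identifiers, 0 matched the RefSeq table, so names are the study's. Calculations used Python 3.11.15, pandas 2.3.3, numpy 2.4.6 and matplotlib 3.10.9, and the functions were tested on simulated data.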

Additional observations from a re-analysis of the deposited data

How the results depend on the processing

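Values are in the order chalcone synthase 2, methyltransferase, laccase on 1H and laccase on 3H. The scale of log2(level + 1) and the share of the summed level cannot change the order of the levels, nor can a filter on genes below a level of 1 change how many genes were higher. The percentage of genes that a member exceeded did depend on the filter: it was 80.8, 76.3, 54.4 and 67.0 among genes with a level of at least 1, and 93.1, 91.5, 83.6 and 88.1 with genes at 0 included. It was 89.7, 87.3, 75.6 and 82.3 on 1H to 7H and 89.6, 85.7, 73.8 and 83.0 within the member's own chromosome, where 338, 435, 850 and 677 genes were higher. Within 500 kb in place of 100 kb, the members had 22, 23, 10 and 20 listed genes in the same order, and the ratios to the median level of these were 29.3, 377, 19.1 and 93.1, against 43.6, 0.986, 13.3 and 853 within 100 kb. These ratios rest on medians near 0 or on few genes. Counting only genes with a level above 0 left 1 gene near the methyltransferase and 3 near the laccase on 3H. With neighbours of a level of at least 1, of which each had 1, the ratios were 0.425 for chalcone synthase 2, 0.493 for the methyltransferase and 3.18 for the laccase on 3H, and the laccase on 1H had no such neighbour. On the strand as printed, 1 member held the PHO element and 1 the AC element. No paired analysis was possible because the table holds no value per library, and leaving out each replicate was not run for the same reason. Depth is unknown, so a level of 0 is only a listed 0.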
